A study of Homo sapiens with 24 samples.

Results

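Aminoacyl-tRNA synthetases were examined as a family of 36 genes among the 12285 genes of an RNA sequencing time series of K562 cells. The genes were chosen by name: 20 encode the cytosolic enzymes, and 16 encode the mitochondrial enzymes, whose symbols end in 2. All 36 were in the expression table, and all 36 had a mean of at least 1 FPKM (fragments scaled by transcript length and by the size of the library), the minimum used for fold differences. Symbols are the older forms (AARS), to which current names add a final 1. K562 is an established human leukaemia line of erythroid character, here in RPMI medium with 10% bovine calf serum and antibiotics and with no other treatment. A synchronous population was prepared by centrifugal elutriation, which separates cells by size, and was then followed for 46 h. RNA was sequenced every 2 h from 0 h to 46 h, with 1 library at each of 24 time points. The only variable of the design was therefore time, and the study read the series as cycles of 24 h, with irregular libraries at 16 h and 18 h and a milder one at 32 h.

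Aminoacyl-tRNA synthetases join each amino acid to its transfer RNA and so supply the ribosome. Most amino acids have separate nuclear genes for the cytosolic and the mitochondrial enzyme. Several cytosolic enzymes sit in a multi-synthetase complex held by scaffold proteins (AIMP1, AIMP2 and EEF1E1), among them EPRS, which charges both glutamate and proline. GARS and KARS are known to serve both compartments, and FARSA and FARSB are the subunits of a single phenylalanine enzyme. Uncharged transfer RNA is sensed by the kinase EIF2AK4 (GCN2). The kinase favours translation of the transcription factor ATF4, and genes of several cytosolic synthetases are textbook targets of ATF4.

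Because there was 1 library per time point, differences between time points had no replicate check. They were set against the same measure of the same gene elsewhere in the series and against all genes. The summed FPKM of the table ranged from 456791 to 520382 over 22 libraries, with those of 16 h and 18 h left aside, against 566247 at 16 h and 591309 at 18 h. Read counts were not analysed here, so the depth of each library and the counting error of each value are unknown. All 9 erythroid markers were in the table, with a summed level of 4105 to 7962 FPKM in those 22 libraries, 3116 at 16 h and 2808 at 18 h. Of the other cell types, 1 of 4 fibroblast markers (1.70 to 3.94 FPKM over the 22 libraries) and 2 of 4 lymphoid markers (summed level 4.81 to 14.1 FPKM) were in the table.

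Cytosolic synthetase transcripts were the more abundant class throughout the series. Over the 22 time points the mean levels of the 20 cytosolic genes ran from 44.3 to 229.8 FPKM with a median of 148 FPKM, and those of the 16 mitochondrial genes from 5.92 to 70.9 FPKM with a median of 20.99 FPKM. The median over all genes was 13.6 FPKM. The most abundant cytosolic members were the tyrosine enzyme YARS at 229.8 ± 20.99 FPKM (SD over 22 time points, here and below), the threonine enzyme TARS at 229 ± 22.2 FPKM and the glycine enzyme GARS at 174 ± 24.6 FPKM. YARS and TARS had overlapping ranges, 187 to 282 FPKM and 200 to 304 FPKM. At the lower end stood the histidine enzyme HARS at 56.6 ± 4.51 FPKM, the phenylalanine subunit FARSB at 47.96 ± 2.43 FPKM and the cysteine enzyme CARS at 44.3 ± 7.51 FPKM. FARSA, the partner subunit of FARSB, had 97.7 ± 17.01 FPKM, and the ranges of the subunits, 77.5 to 141 FPKM and 44.9 to 53.8 FPKM, did not overlap. Such levels are shares of the RNA sequenced, so fewer cells with a transcript and less of it per cell cannot be told apart.

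Among the mitochondrial enzymes the isoleucine enzyme IARS2 stood apart at 70.9 ± 6.03 FPKM. Its lowest time point, 57.0 FPKM, was above the highest of the next members, the arginine enzyme RARS2 at 32.6 ± 1.44 FPKM and the serine enzyme SARS2 at 29.3 ± 5.06 FPKM. RARS2 and SARS2 overlapped. The least abundant members were the phenylalanine enzyme FARS2 at 10.8 ± 1.34 FPKM, the tryptophan enzyme WARS2 at 9.50 ± 1.14 FPKM and the proline enzyme PARS2 at 5.92 ± 0.78 FPKM. The range of PARS2, 4.96 to 7.53 FPKM, lay below every value of WARS2, whose lowest was 7.95 FPKM.

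In all 15 pairs of a cytosolic and a mitochondrial enzyme for the same amino acid, the cytosolic transcript was higher at every one of the 22 time points. EPRS was paired with both EARS2 and PARS2, and FARS2 was left unpaired because its cytosolic counterpart has separate subunits. The median ratio within a library was smallest for CARS to CARS2 at 1.99 and for IARS to IARS2 at 2.09. It was largest for EPRS to PARS2 at 26.2 and for WARS to WARS2 at 16.3. HARS and HARS2, with a median ratio of 3.16, are neighbouring genes of related sequence, and how reads matching both were counted is not stated in the sources used here.

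**Figure D1:**
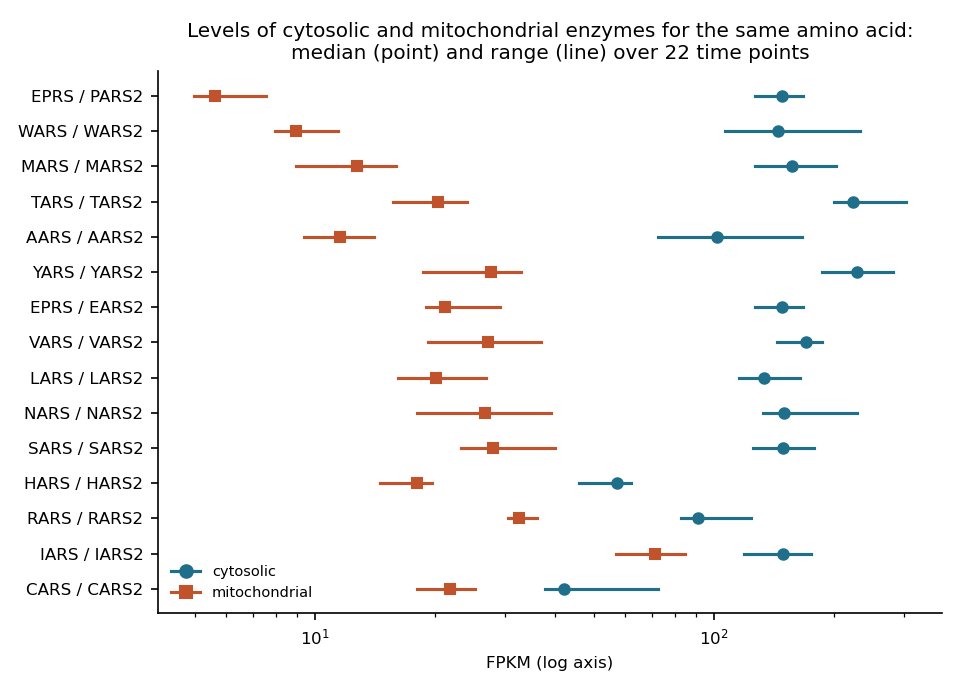
Levels (FPKM, log axis) of the 15 pairs of cytosolic (circles) and mitochondrial (squares) synthetases for the same amino acid, ordered by the median ratio within a library; points are medians and lines the lowest to highest value over 22 time points (16 h and 18 h left out). The lines of a pair do not overlap in any of the 15 pairs, and the gap runs from a median ratio of 1.99 (CARS to CARS2) to 26.2 (EPRS to PARS2).

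Members of the multi-synthetase complex were close to each other in level. The 8 enzymes EPRS, IARS, LARS, MARS, QARS, RARS, KARS and DARS had means of 93.0 to 167 FPKM, and the 12 free cytosolic enzymes 44.3 to 229.8 FPKM. Of the scaffold genes, EEF1E1 had 157 ± 17.02 FPKM, AIMP1 45.5 ± 3.36 FPKM and AIMP2 39.3 ± 5.20 FPKM. EEF1E1 thus lay within the range of the enzymes of the complex, and AIMP1 and AIMP2 lay below all 8 of them.

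The spread of the members over the 22 time points is given without the same value over all genes, which was not computed. The coefficient of variation (SD as a share of the mean) ran from 5.06% to 18.9% for cytosolic members with a median of 9.68%, and from 4.42% to 19.01% for mitochondrial members with a median of 12.2%. FARSB (5.06%), KARS (6.24%) and RARS2 (4.42%) varied least. WARS (18.9%), AARS (18.7%) and FARSA (17.4%) varied most among cytosolic members, and NARS2 (19.01%), VARS2 (17.8%) and SARS2 (17.3%) among mitochondrial members.

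**Figure D2:**
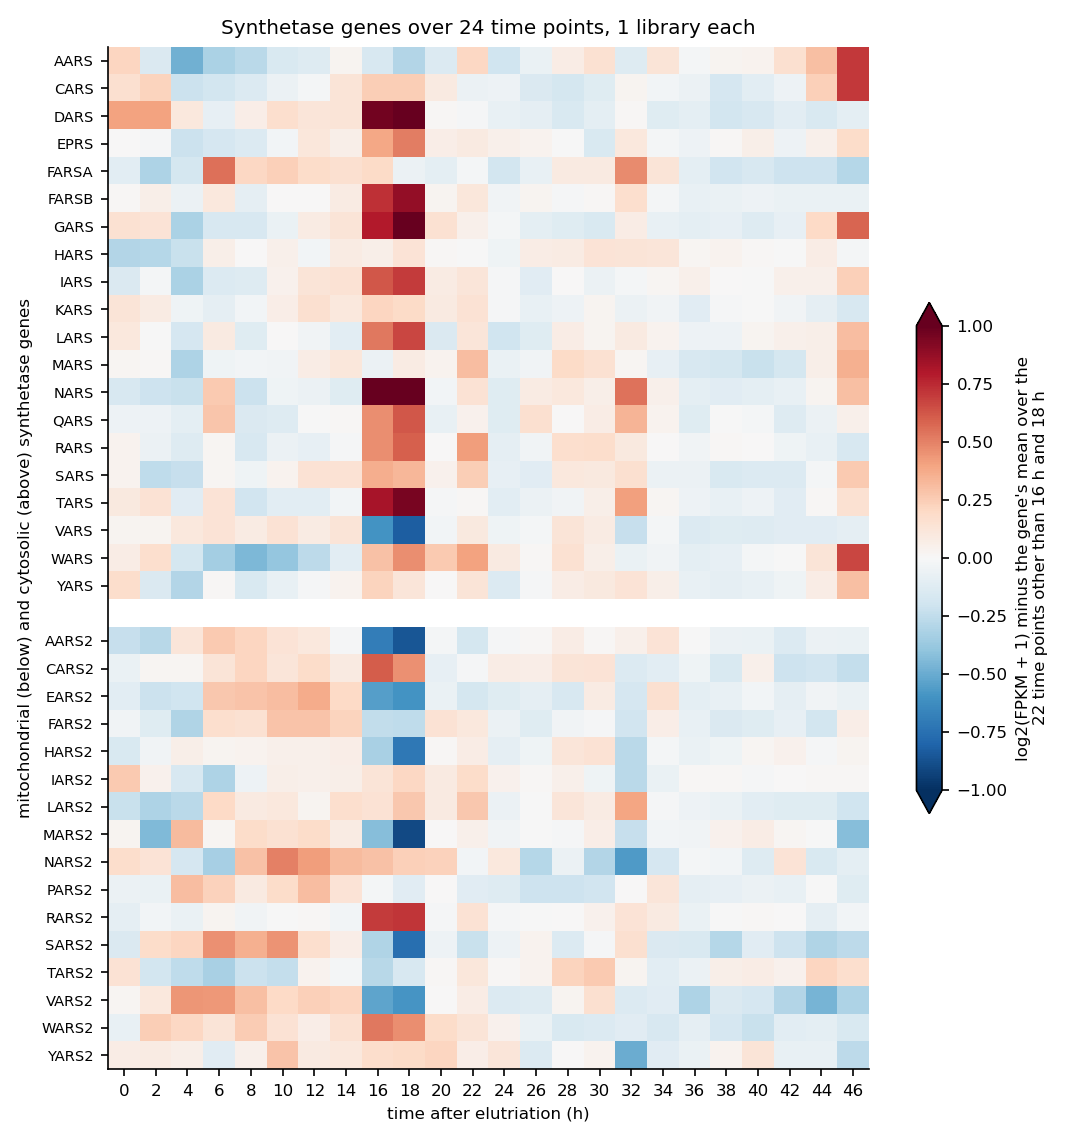
Each of the 36 synthetase genes (rows, cytosolic above and mitochondrial below) at the 24 time points after elutriation (columns, h), as log2(FPKM + 1) minus the gene's own mean, which leaves out 16 h and 18 h; colours are capped at 1 in either direction, and NARS and DARS exceed the cap. The columns at 16 h and 18 h depart from their neighbours in opposite directions in different genes, AARS, CARS, GARS and WARS are high at 46 h, and EARS2, SARS2 and VARS2 are highest between 4 h and 12 h.

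The 2 classes stood apart in the last library. At 46 h, 10 of 20 cytosolic members were at their highest level of the 22 time points (AARS, CARS, EPRS, GARS, IARS, LARS, MARS, SARS, WARS and YARS), and 0 of 16 mitochondrial members were, while 11.3% of all genes had their highest level there. This comparison and the one between 0 h and 4 h were chosen after the values had been seen, so both are descriptions. Summed over the class, the cytosolic transcripts had 2539, 2704 and 3122 FPKM at 42 h, 44 h and 46 h, the last being the highest sum of the 22. The mitochondrial sum was 349.8, 341 and 338 FPKM.

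The cysteine enzyme CARS had 40.7, 42.3, 52.0 and 72.4 FPKM at 40 h, 42 h, 44 h and 46 h, against a median of 42.2 over the 22 time points. The tryptophan enzyme WARS had 144, 145, 159.6 and 233 FPKM at the same time points, against a median of 145. The glycine enzyme GARS had 163, 198 and 259 FPKM at 42 h, 44 h and 46 h, with a median of 164. The alanine enzyme AARS had 114, 125 and 166 FPKM, with a median of 102. In each of the 4 genes the value at 44 h was above those from 36 h to 42 h, and the value at 46 h lay above every other of the 22.

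Expressed as log2(FPKM + 1) at 46 h minus the mean of 36 h to 42 h, the differences were 0.81 for CARS, 0.72 for WARS, 0.68 for GARS and 0.65 for AARS, or 1.75-fold, 1.65-fold, 1.60-fold and 1.57-fold. These 4 of 20 cytosolic members were at least 1.5-fold above, against 2.50% of all genes, and none was 2-fold above, against 0.637% of all genes. No member of either class was 1.5-fold or 2-fold below, as 1.16% and 0.416% of all genes were. No mitochondrial member was 1.5-fold above. The median difference was 0.22 for cytosolic members, with 16 of 20 above 0, and −0.03 for mitochondrial members, with 5 of 16 above 0. The median over all genes was 0.01. Set against 11 other time points measured in the same way, 8 of 20 cytosolic members exceeded every reference value of their own, which 14.2% of all genes did. The 8 were CARS, WARS, GARS, AARS, the methionine enzyme MARS (0.54), the serine enzyme SARS (0.38), YARS (0.37) and the leucine enzyme LARS (0.32).

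Other cytosolic members were near their earlier level at 46 h. RARS (−0.14), KARS (−0.12), FARSA (−0.12) and HARS (−0.04) had negative differences, and FARSB (0.00), VARS (0.03) and DARS (0.04) lay near 0. RARS, KARS and the mitochondrial MARS2 (−0.45) fell short of every reference value of their own, which 10.7% of all genes did. Among the 8 enzymes of the complex the median difference was 0.16 and 0 were 1.5-fold above. Among the 12 free enzymes the median was 0.37 and 4 were 1.5-fold above. The scaffold genes had differences of −0.14 to −0.09, all below 0.

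The amino acid response list, 16 genes around EIF2AK4 and ATF4, was higher in the same library. Of its 16 genes, 14 were at least 1.5-fold and 8 at least 2-fold above the mean of 36 h to 42 h, against 2.50% and 0.637% of all genes. The median difference was 0.95, against 0.01 over all genes. CHAC1, which encodes an enzyme that breaks down glutathione, had 5.04, 20.98 and 65.2 FPKM at 42 h, 44 h and 46 h. ASNS, the asparagine synthetase that makes the amino acid and does not charge a transfer RNA, had 161, 222 and 368 FPKM at the same time points. SESN2, an inhibitor of mTORC1 signalling, had 14.6, 24.99 and 57.4 FPKM. ATF4 itself had 92.8, 126 and 145 FPKM, and EIF2AK4 had 16.2, 19.3 and 16.9 FPKM. All members of the list except EIF2AK4 had a positive difference, and the largest cytosolic synthetase difference, that of CARS, was below the median of the list. The summed erythroid markers had 5531 FPKM at 46 h, within their range elsewhere. Whether other properties of the 46 h library take part in these differences was not tested.

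**Figure D3:**
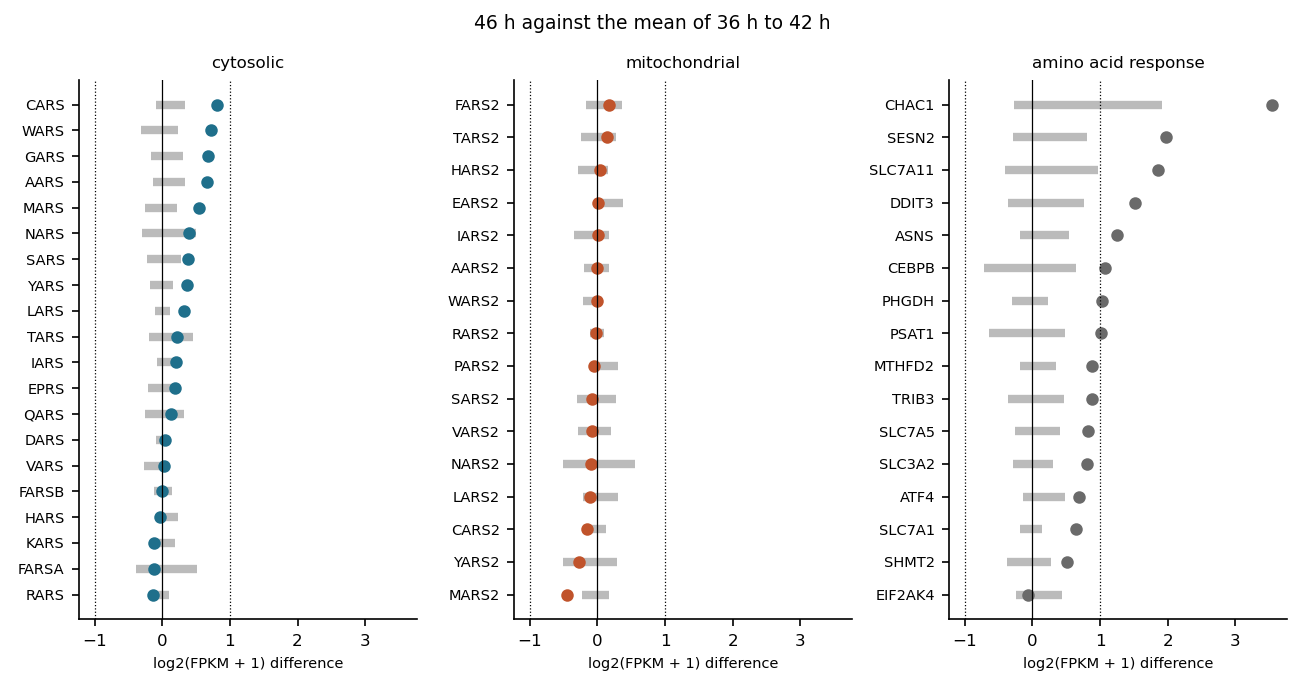
Difference in log2(FPKM + 1) between 46 h and the mean of 36 h to 42 h for the 20 cytosolic synthetases, the 16 mitochondrial synthetases and the 16 genes of the amino acid response list (points, 1 library at 46 h); grey bars span the gene's 11 reference values, and dotted lines mark 2-fold. CARS, WARS, GARS and AARS lie at 0.65 to 0.81 and outside their bars, the mitochondrial points lie between −0.45 and 0.17, and CHAC1 reaches 3.54.

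Several of these genes had low levels early in the series. At 4 h, 8 of 20 cytosolic members were at their lowest level of the 22 time points (AARS, CARS, EPRS, GARS, IARS, MARS, NARS and YARS), as was 1 of 16 mitochondrial members (FARS2), against 8.55% of all genes. AARS had 118, 91.6, 72.6 and 81.2 FPKM at 0 h, 2 h, 4 h and 6 h. GARS had 191, 189, 138 and 154 FPKM, and YARS 259, 207, 187 and 231 FPKM. All 3 genes were lower at 4 h than at either neighbouring time point. On the log2(FPKM + 1) scale, 4 h minus 0 h was −0.69 for AARS, −0.47 for YARS and −0.47 for GARS. The median was −0.21 for cytosolic members, with 18 of 20 below 0, and 0.05 for mitochondrial members, with 7 of 16 below 0. AARS was the only member at least 1.5-fold lower, against 5.63% of all genes, and none was 1.5-fold or 2-fold higher, against 3.91% and 0.669%. AARS, YARS, GARS, LARS and EPRS fell short of all 17 other steps of 4 h in the same gene, and 3 of 16 mitochondrial members did (IARS2, TARS2 and FARS2), against 14.4% of all genes. In the other direction 0 of 20 cytosolic and 4 of 16 mitochondrial members (VARS2, PARS2, SARS2 and WARS2) exceeded all of them, against 10.4%. All 16 genes of the amino acid response list were lower at 4 h than at 0 h, with a median of −0.39 and 3 of them at least 2-fold lower (DDIT3, CHAC1 and SESN2), against 1.41% of all genes. The median over all genes was −0.02.

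Promoter letters were set beside the 46 h difference. RefSeq promoter windows (GRCh38.p14, 250 bases before to 50 bases after each annotated start) were found for 16 of 20 cytosolic and 14 of 16 mitochondrial genes. The windows were searched on both strands for TGATGNAA, the letters of the C/EBP-ATF response element to which ATF4 is known to bind with C/EBP partners. They were present in 7 of 16 cytosolic genes (43.8%), in 1 of 14 mitochondrial genes (YARS2, 7.14%), in 2.41% of the genes of the expression table with a window and in 4.46% of all genes with one. In the amino acid response list they were present in 4 of 14 genes (CHAC1, ASNS, SLC3A2 and SLC7A1). Within that list the 46 h difference was not split by the letters. From 42 h to 46 h, CHAC1 and SLC7A1, with the letters, went from 5.04 to 65.2 FPKM and from 17.8 to 28.9 FPKM. SLC7A5, whose window lacked them, went from 75.8 to 142.6 FPKM. A stretch of 30 bases around the letters is shown for the 7 cytosolic genes, and for ASNS and CHAC1 as known targets of ATF4, because the 46 h difference of these genes can be set beside it. Each stretch is written 5′ to 3′ on the strand of the gene. Capitals mark the letters found, which appear as their reverse complement where the match is on the opposite strand.
AARS, chr16:70289675-70289704, minus strand: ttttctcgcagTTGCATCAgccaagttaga
CARS, chr11:3057407-3057436, minus strand: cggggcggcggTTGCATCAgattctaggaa
GARS, chr7:30594834-30594863, plus strand: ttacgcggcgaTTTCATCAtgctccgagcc
IARS, chr9:92293692-92293721, minus strand: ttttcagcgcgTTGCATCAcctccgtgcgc
MARS, chr12:57488053-57488082, plus strand: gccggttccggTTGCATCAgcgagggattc
NARS, chr18:57621804-57621833, minus strand: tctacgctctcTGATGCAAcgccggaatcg
TARS, chr5:33440956-33440985, plus strand: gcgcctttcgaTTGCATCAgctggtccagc
ASNS, chr7:97872458-97872487, minus strand: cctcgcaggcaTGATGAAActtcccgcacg
CHAC1, chr15:40953251-40953280, plus strand: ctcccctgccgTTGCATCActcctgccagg

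Counted from the annotated start, the first capital lay at −187 in AARS, −33 in GARS, −13 in IARS, −4 in MARS, −2 in CARS, 3 in TARS and 15 in NARS. In 6 of the 7 cytosolic genes the variable base gives TGATGCAA on 1 of the strands, and in GARS it gives TGATGAAA, as in ASNS. The 46 h difference of these 7 genes was 0.21 to 0.81 with a median of 0.54. The 9 cytosolic genes whose windows lacked the letters had differences of −0.14 to 0.72 with a median of 0.00, the highest being WARS. DARS, LARS, VARS, YARS, AARS2 and VARS2 had no entry. The groups overlapped through WARS and SARS (0.38). At 4 h against 0 h the medians were −0.33 with the letters and −0.17 without. Such a match is a description of the sequence and not evidence of binding.

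Other letters were rarer in the family. The E-box CACGTG was present in IARS among 16 cytosolic genes (6.25%) and in CARS2, EARS2 and MARS2 among 14 mitochondrial genes (21.4%), against 13% of the genes of the expression table with a window and 8.77% of all genes with one. The palindromic NRF1 element was present in MARS2 and in 0 of 16 cytosolic genes, against 2.99% and 1.52%. Matches of different letters in a gene did not overlap each other, and the E-box of EARS2 was the same site found in both of its windows.

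At 16 h and 18 h the medians of the 2 classes departed from their neighbours in opposite directions as deposited, though not for the mitochondrial class once the trend with GC content was removed. The deviation was taken as the mean of log2(FPKM + 1) at both time points minus the straight line from 14 h to 20 h. Its median was 0.34 for cytosolic members, with 17 of 20 above 0, and −0.17 for mitochondrial members, with 6 of 16 above 0, and it was 0.14 over all genes. One of 20 cytosolic members and 0 of 16 mitochondrial members were at least 2-fold above the line, and none of either class was 2-fold below, against 8.95% and 7.11% of all genes. At 1.5-fold, 6 cytosolic members were above and 1 below, and 1 mitochondrial member was above and 4 below, against 23.9% and 16.8% of all genes. The cytosolic class summed to 2747, 3703, 3969 and 2698 FPKM at 14 h, 16 h, 18 h and 20 h, and the mitochondrial class to 395, 382, 369.9 and 379.6 FPKM.

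The asparagine enzyme NARS had the largest deviation. It had 143, 423, 535 and 153 FPKM at the 4 time points, while its 22 other values ran from 133 to 228 FPKM with a median of 150.2. Its deviation was 1.68, or 3.20-fold, and the same measure at 16 other consecutive pairs of time points ran from −0.26 to 0.32. NARS was thus the only member 2-fold above. The aspartate enzyme DARS had 107, 193, 205 and 99.3 FPKM in the same order, a deviation of 0.94. The threonine enzyme TARS had 223, 405, 440.1 and 227 FPKM, a deviation of 0.91. GARS, FARSB and LARS followed at 0.75, 0.75 and 0.73.

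The valine enzyme VARS went the other way. It had 185, 112, 94.99 and 166 FPKM from 14 h to 20 h, and both middle values were below all 22 others, of which the lowest was 144 FPKM. Its deviation was −0.76 as deposited, −1.04 after quantile normalization and 0.02 after removal of the trend with GC content over all genes. Its direction from 0 thus rested on the processing, though 0.02 was still below the median over all genes after that removal, 0.18. AARS (−0.17) and MARS (−0.06) were the other cytosolic members below 0, and both lay within their reference range.

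Mitochondrial members were split. The arginine enzyme RARS2 had 31.96, 53.5, 54.1 and 32.4 FPKM, a deviation of 0.72, in the gene with the smallest variation elsewhere. The alanine enzyme AARS2 had 11.5, 6.79, 5.94 and 11.4 FPKM, a deviation of −0.76. The methionine enzyme MARS2 had 13.3, 9.12, 6.25 and 12.6 FPKM (−0.70), and the valine enzyme VARS2 had 31.4, 18.4, 17.6 and 27.0 FPKM (−0.67). EARS2 (−0.64) was the fourth member at least 1.5-fold below. In these genes the values at 16 h and 18 h lay outside those of the other 22 time points except for the 16 h value of MARS2, since MARS2 had 8.96 FPKM at 2 h and 9.08 FPKM at 46 h. In all, 15 of 20 cytosolic members exceeded every one of their 16 reference values and 1 fell short of all of them, and the counts for mitochondrial members were 3 and 9 of 16. Over all genes the shares were 43.6% and 28.0%.

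**Figure D4:**
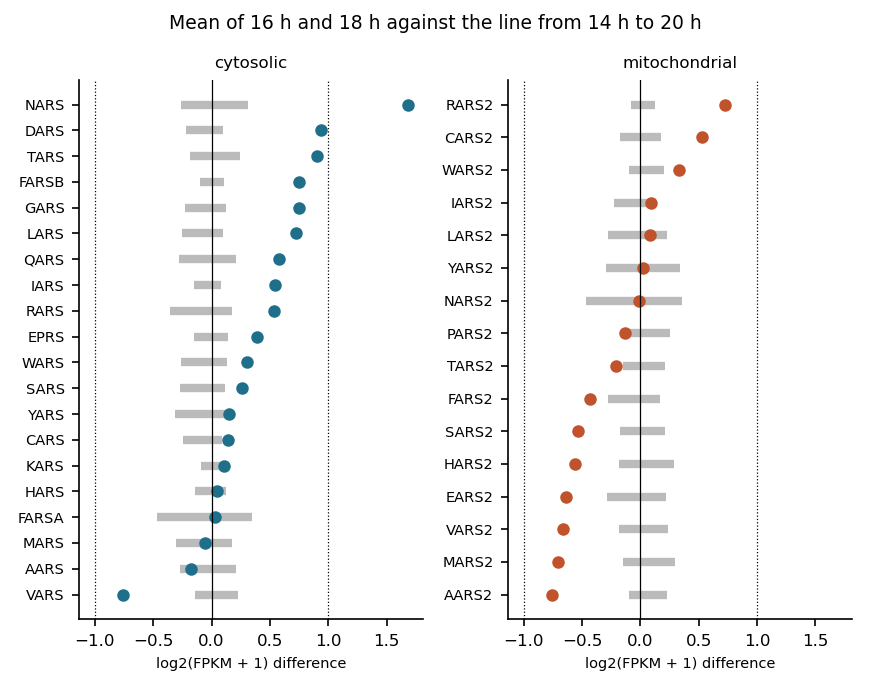
Deviation of log2(FPKM + 1) at 16 h and 18 h (mean of the 2 libraries) from the line between 14 h and 20 h, for the 20 cytosolic and 16 mitochondrial synthetases (points); grey bars span the gene's 16 reference values, and dotted lines mark 2-fold. NARS at 1.68 is the only point beyond 2-fold, VARS at −0.76 is the only cytosolic point below its bar, and 9 of 16 mitochondrial points lie below theirs.

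GC content moved with the deviation. The GC content of the longest annotated transcript of a member ran from 41.2% to 62.6%, with a median of 47.7% for cytosolic and 51.2% for mitochondrial members. Across the 36 genes, which share the same 4 libraries, Pearson's r between GC content and deviation was −0.65, and it was −0.71 within the 20 cytosolic and −0.59 within the 16 mitochondrial members. Over 12148 genes r was −0.51. With the trend over all genes removed, the median deviation was 0.46 for cytosolic members, 0.02 for mitochondrial members and 0.18 over all genes. Measured from 0, the negative direction of the mitochondrial class was lost and the positive direction of the cytosolic class kept. The mitochondrial median stayed below that over all genes. The 8 enzymes of the complex had a median of 0.54 and the 12 free enzymes of 0.21 as deposited, and 0.32 and 0.51 with the trend removed, which turned their order. NARS kept 1.53, and MARS2, with 48.4% GC, kept −0.68. Of the 9 erythroid markers, 6 were below and 1 above all of their 22 other values at both 16 h and 18 h. The share of all genes by this rule was not computed. By a different measure, the 16 reference values of each gene, 28.0% of all genes fell short of all of them and 43.6% exceeded them. The part of the markers in these differences was not tested.

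Scaffold genes and charging partners were set against the same line, from which 23.9% of all genes were 1.5-fold above and 16.8% below. None of the 3 scaffold genes was 1.5-fold off it. Of the 13 partners ELAC2, a nuclease that trims transfer RNA 3′ ends, was above (0.72). TUFM, the mitochondrial elongation factor that carries charged transfer RNA, was below (−0.89). With the GC trend removed ELAC2 was at 1.08 and TUFM at −0.38, and the scaffold gene EEF1E1 went from −0.24 to −0.61, so which genes were 1.5-fold off rested on that trend. In the amino acid response list 0 of 16 genes were 1.5-fold above and 6 below, against the same shares of all genes, with a median of −0.30. ASNS (0.27) and MTHFD2 (0.51) were among the 7 of 16 above 0. With the GC trend removed the median of this list, whose median GC content was 54.7%, was −0.05, against 0.18 over all genes.

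At 6 h and 32 h no member was 2-fold or 1.5-fold from the mean of its neighbours. Of all genes, 2.41% were 1.5-fold above and 1.90% below at 6 h, with 0.571% and 0.865% at 2-fold. At 32 h the shares were 3.40% and 3.36% at 1.5-fold and 0.449% and 1.01% at 2-fold. NARS had 133, 187 and 134 FPKM from 4 h to 8 h and 162, 228 and 161 FPKM from 30 h to 34 h, differences of 0.48 and 0.49. FARSA had differences of 0.53 and 0.36, TARS of 0.28 and 0.37 and QARS of 0.40 and 0.28. These 4 genes, FARSB (0.18 and 0.17) and the mitochondrial LARS2 (0.29 and 0.36) exceeded all 16 of their reference values at both hours. Taking each hour alone, 7 of 20 cytosolic and 2 of 16 mitochondrial members did so at 6 h, against 25.1% of all genes, and 6 and 2 did so at 32 h, against 25.3%. NARS2 (−0.39 and −0.34) and IARS2 (−0.20 and −0.21) fell short of theirs at both hours, and YARS2 fell short at 32 h with −0.46. At 6 h, 1 of 20 cytosolic and 3 of 16 mitochondrial members fell short, against 11.4% of all genes, and at 32 h 1 and 6 did, against 17.5%. The median at 32 h was 0.08 for cytosolic and −0.16 for mitochondrial members, and 0.03 over all genes.

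Order over a 24 h period was detected for 5 of 20 cytosolic and 3 of 16 mitochondrial members (permutation test of the JTK rank statistic over 100000 orderings of the time points, Benjamini–Hochberg adjusted p of 0.05 or below over all genes), against 13% of all genes. Orderings treat the time points as exchangeable, so a slow drift lowers p as well. The called cytosolic genes had late fitted phases. WARS had its phase at 22 h (adjusted p = 0.0065 by permutation), IARS at 16 h (0.0165), GARS at 18 h (0.029) and EPRS at 18 h (0.037). FARSA, at 8 h and 0.049, was the exception among them. The mitochondrial genes had early phases, AARS2 at 8 h (0.0065), SARS2 at 6 h (0.012) and VARS2 at 6 h (0.018). The phases of IARS, GARS and EPRS fall on the irregular libraries of 16 h and 18 h, where each was above its other values. IARS had 228 and 241 FPKM there, against at most 175 FPKM elsewhere. AARS2, SARS2 and VARS2 were below their other values in those libraries. Phases without these libraries are not given, so timing in the cycle cannot be told apart from the irregular libraries. WARS had its lowest value of 106 FPKM at 8 h, 194 FPKM at 22 h and its maximum of 233 FPKM at 46 h. In a 24 h period 46 h has the same phase as 22 h, and the test was not run without 46 h. AARS2 had 9.36 FPKM at 2 h and its maximum of 14.1 FPKM at 6 h. Without 16 h and 18 h, 3 cytosolic members (WARS, IARS and FARSA) and 2 mitochondrial members (AARS2 and SARS2) were called. GARS, EPRS and VARS2 then had adjusted p of 0.093, 0.11 and 0.058 by the same permutation test. VARS2 also missed the threshold with upper-quartile scaling (0.052), median centring (0.058) and the authors' cleaned table (0.081) by permutation. With a limma fit of a cosine and a sine, VARS2 (adjusted p = 0.059) and EPRS (0.055) missed it.

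In the pathway lists, 0 of 3 scaffold genes, 3 of 13 partners and 5 of 16 amino acid response genes were called, against 13% of all genes. These calls used all 24 time points, and calls without 16 h and 18 h are not given for these lists. The partners were TRNT1, which adds the CCA end to transfer RNA (phase 20 h), AARSD1 (8 h) and SEPSECS (20 h). The response genes were PSAT1, EIF2AK4, MTHFD2, ASNS and SLC7A11, with phases between 18 h and 22 h.

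Between the 2 periods, mitochondrial transcripts fell in 4 of 16 members and cytosolic transcripts in 2 of 20, and none rose. The second 24 h was compared with the first by limma on log2(FPKM + 1) over 20 time points, with the matched hour as a block and 16 h, 18 h, 40 h and 42 h left out. The libraries were serial samples, so the test measures the spread between time points and not between cultures. The fit treats the libraries as independent, so likeness between neighbouring time points would make p too small. At a Benjamini–Hochberg adjusted p of 0.05 or below, 12.6% of all genes were higher and 7.04% lower. The median difference was −0.12 for mitochondrial members, with 14 of 16 below 0, 0.03 for cytosolic members, with 6 of 20 below 0, and 0.01 over all genes.

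VARS2 had 31.3 ± 3.56 FPKM in the first and 24.3 ± 3.10 FPKM in the second period (SD, 10 time points each). It fell by 0.36 on the log2 scale (SE 0.05, limma adjusted p = 0.00034) and was lower at all 10 matched hours. NARS2 had 30.8 ± 5.49 and 24.5 ± 3.18 FPKM and fell by 0.31 (SE 0.09, limma adjusted p = 0.027), being higher in the second period at 2 of 10 hours. SARS2 had 32.5 ± 5.43 and 26.7 ± 2.94 FPKM and fell by 0.26 (SE 0.06, limma adjusted p = 0.012). WARS2 had 10.6 ± 0.74 and 8.69 ± 0.44 FPKM and fell by 0.25 (SE 0.05, limma adjusted p = 0.0068). SARS2 and WARS2 were each higher in the second period at 1 of 10 hours. PARS2 was lower at all 10 hours and did not pass (limma adjusted p = 0.051), and NARS2 lost its call when any 1 of 5 pairs of matched hours was left out (limma adjusted p of 0.051 to 0.071). With all 24 time points SARS2 (0.24) and VARS2 (0.059) did not pass by limma. The individual values of the 4 genes overlapped between periods, and the first period held the higher values from 4 h to 12 h in VARS2 and SARS2.

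Among cytosolic members DARS had 108 ± 12.7 and 91.4 ± 3.50 FPKM and fell by 0.24 (SE 0.05, limma adjusted p = 0.0099), with 0 of 10 hours higher in the second period. Apart from 16 h and 18 h, its highest values were 130.5 FPKM at 0 h and 130.1 FPKM at 2 h. VARS had 179 ± 6.77 and 163 ± 12.1 FPKM and fell by 0.14 (SE 0.04, limma adjusted p = 0.038), a call lost when any 1 of 6 pairs of matched hours was left out (limma adjusted p of 0.058 to 0.091). With all 24 time points the difference of VARS was −0.018 (limma adjusted p = 0.91). The cytosolic member with the largest positive difference was AARS at 0.22 (limma adjusted p = 0.088), higher at 8 of 10 hours, which passed without 0 h and 24 h (0.29, limma adjusted p = 0.010). In the pathway lists AIMP2 fell by 0.23 (limma adjusted p = 0.013) as 1 of 3 scaffold genes and DTD1, which removes D-amino acids from transfer RNA, fell by 0.21 (limma adjusted p = 0.022) as 1 of 13 partners. PHGDH, the first enzyme of serine synthesis, rose by 0.24 (limma adjusted p = 0.031) as 1 of 16 amino acid response genes.

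**Figure D5:**
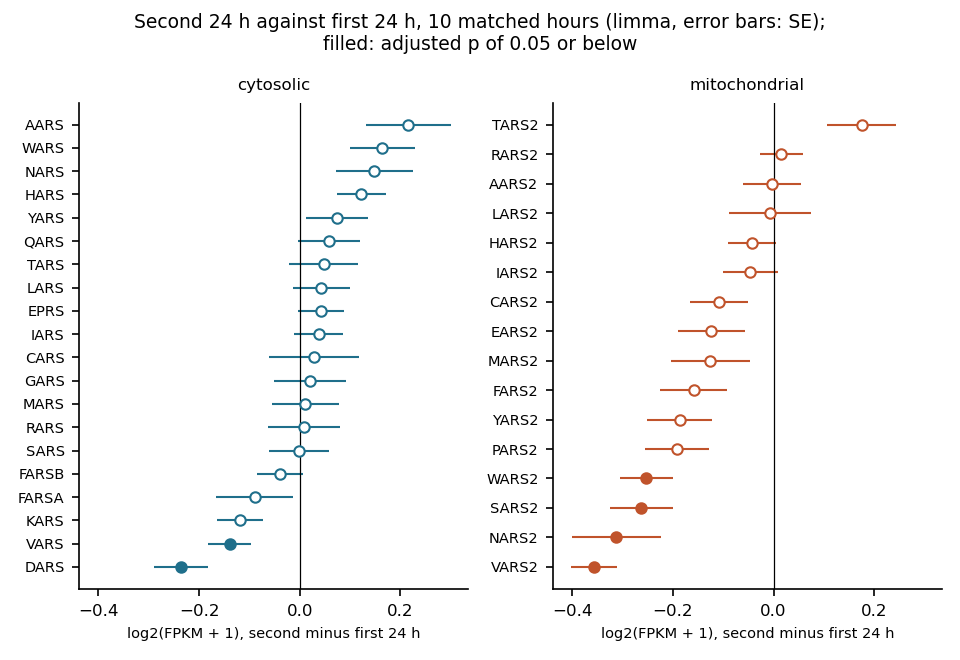
Difference in log2(FPKM + 1) between the second 24 h and the first 24 h for the 20 cytosolic and 16 mitochondrial synthetases (limma estimate and SE over 10 matched hours; filled points have an adjusted p of 0.05 or below). The filled points are DARS and VARS among cytosolic and WARS2, SARS2, NARS2 and VARS2 among mitochondrial members, all below 0, and 14 of 16 mitochondrial points lie below 0.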

How the data were processed

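RNA of 24 libraries of K562 cells was analysed, each assigned to its time point and table column by its labels. The authors aligned reads with STAR and deposited FPKM values made with Cufflinks and Cuffnorm, on GRCh37 per the submitters' processing notes, with versions and annotation not given in the sources used here. A second table, which the authors deposited as cleaned, holds a score per gene and time point and served as an alternative only. FPKM values do not give depth, so no counting error can be stated.

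Identifiers were matched to symbols, GC content and transcript length in GENCODE 29, and promoters to RefSeq through current symbols. Fold differences used log2(FPKM + 1), which understates changes of low genes, and were taken over the 12253 genes whose mean reached 1 FPKM. Calls were 2-fold and 1.5-fold differences with no test, the JTK statistic (12 phases, Python 3.11.15) and limma 3.58.1 in R 4.3.3, adjusted by Benjamini–Hochberg over all genes. The deviation at 16 h and 18 h, the JTK statistic, the limma comparison of periods and the sign-flip estimate were run on simulated data. The simulated noise was independent between time points, with no drift and no effect shared by a library. The other procedures were not simulated. GC trends were lowess fits (span 0.3, statsmodels 0.14.6).

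Members may all be named. Values by time point are given for the 4 members of each class with the largest deviation at 16 h and 18 h and for those called over time or between periods, and levels for the 3 most and least abundant of each class. Genes named for 46 h, 4 h, 6 h and 32 h and for variation were chosen after their values were seen. The members, lists and tests were chosen with earlier results of these data known, and some genes of the amino acid response list overlap a list described earlier from these data. Alternatives were other scalings, pseudocounts, filters, periods, blocks and time points.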

Additional observations from a re-analysis of the deposited data

How the results depend on the processing

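The depth of the libraries is unknown and each time point has 1 library, so small differences cannot be separated from counting error, and no alternative replaces a replicate. Comparisons of 46 h with 36 h to 42 h and of 4 h with 0 h, their alternatives, and the comparison of periods without 20 h, 22 h, 44 h and 46 h were added after the data had been seen. The groups compared carry no shared replicate numbers other than the matched hour. Without the block for the matched hour 3 cytosolic and 6 mitochondrial members were lower. Of 404 values of classes and of all genes under alternatives, 357 moved by less than their spread or by less than 1.5 times for a count. The other 47 moved by more. Some of the 357 could not move. All members pass the filter, so their differences without a filter are the same, and the 2-fold counts at 6 h and 32 h were 0 under every setting. The tally is therefore not a measure of robustness. VARS, 1.5-fold below the line at 16 h and 18 h, changed sign to 0.018 with the GC trend removed, and no other difference of a synthetase of at least 1.5-fold and no limma call changed direction. The mitochondrial median, which has no test, changed sign at 16 h and 18 h with the GC trend removed and at 6 h under each rescaling.

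At 16 h and 18 h, the 1.5-fold threshold gave 6 cytosolic members above and 1 below, and 1 mitochondrial member above and 4 below. The cytosolic median was 0.23 with median centring, 0.11 with upper-quartile scaling, 0.040 with quantile normalization and 0.46 with the GC trend removed. Quantile normalization also put 1 cytosolic member 2-fold below. The mitochondrial median was −0.29 with median centring, −0.38 with upper-quartile scaling, −0.27 with quantile normalization, 0.020 with the GC trend removed and −0.32 with a minimum mean of 10 FPKM. The difference between the classes thus kept its sign under these settings, while the cytosolic median was smaller with each of the 3 rescalings.

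At 6 h, the cytosolic median was 0.063 with upper-quartile scaling and 0.042 with quantile normalization, and the mitochondrial median was −0.029 with median centring, −0.056 with upper-quartile scaling and −0.044 with quantile normalization. At 32 h, the mitochondrial median was −0.23 with upper-quartile scaling and −0.21 with quantile normalization. At 46 h, 4 cytosolic members passed the 1.5-fold threshold, and 44 h in place of 46 h gave a cytosolic median of 0.064. At 4 h, 1 cytosolic member passed the 1.5-fold threshold.

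For order over 24 h, a period of 20 h called 1 cytosolic and 0 mitochondrial members and 395 genes in all, and a period of 28 h called 0 mitochondrial members and 394 genes. Without 16 h and 18 h, 3 cytosolic members were called. A limma fit of a cosine and a sine in place of JTK added IARS2 (adjusted p = 0.038) and NARS2 (0.021), and upper-quartile scaling added CARS (0.042 by permutation). Between periods, all 24 time points gave 1 cytosolic and 2 mitochondrial members lower, and leaving out 20 h, 22 h, 44 h and 46 h as well gave 1 cytosolic member lower. Median centring gave 1336 genes lower, and a minimum mean of 10 FPKM gave 728 genes higher. Leaving out 1 pair of matched hours at a time gave 0 to 1 cytosolic and 0 to 1 mitochondrial members higher, 1 to 3 cytosolic and 3 to 6 mitochondrial members lower, and 1047 to 1833 genes higher and 471 to 1049 lower in all. VARS lost its call without the pair 8 h and 32 h, 10 h and 34 h, 12 h and 36 h, 14 h and 38 h, 20 h and 44 h or 22 h and 46 h (limma adjusted p of 0.058 to 0.091). NARS2 lost it without 2 h and 26 h, 10 h and 34 h, 12 h and 36 h, 14 h and 38 h or 20 h and 44 h (0.051 to 0.071), and under exact sign flips over the 10 pairs (0.080). AARS, TARS2 and WARS were higher by this threshold when 1 pair was left out. The cause of these changes was not tested.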
